A study of Arabidopsis thaliana with 8 samples.

Results

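Floral buds of 2 H3K27me3 demethylase mutants of *Arabidopsis thaliana*, *elf6* and *jmj13*, were set together against buds of wild-type Col-0 and of a further demethylase mutant, *ref6*, and the genes that changed alike in both *elf6* and *jmj13* are described here. The comparison was defined by genotype labels alone: 4 libraries labelled *elf6* (2) and *jmj13* (2) against 4 libraries labelled Col-0 (2) and *ref6* (2), which are all 8 libraries of the series. Of 25738 genes listed in any library, 19939 passed the filter on low counts and were tested. Of these, 6 changed alike (2 higher and 4 lower in the mutants), and 18 did when replicate 1 of Col-0 and of *ref6* were left out.

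All plants were in the Col-0 background, grown in soil under long days, and RNA came from untreated buds of stages 9 to 13 of the primary inflorescence. The *elf6*, *jmj13* and *ref6* plants each carry a T-DNA insertion, and each mutant was represented by a single insertion line, so that line and gene cannot be told apart. The labels name no allele. The methods name a GABI-Kat line for *jmj13* and SALK lines for *elf6-3* and *ref6-1*, whereas the naming of the deposited data has *elf6-1*, so the *elf6* allele is not certain. Nothing states that the 2 libraries of a genotype came from separate plants or pools, and p-values therefore measure the spread between these libraries, which may be technical.

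H3K27me3 is a histone mark laid down by Polycomb group proteins on genes that are kept silent. JmjC-domain proteins of the KDM4 group, to which ELF6, REF6 and JMJ13 belong, remove methyl groups from this mark and thereby permit transcription. In flowering plants these enzymes act in the timing of flowering and in the growth of floral organs, and the study asked what the loss of each does in the bud. A gene was called changed when edgeR's quasi-likelihood test gave an adjusted p (Benjamini-Hochberg) under 0.05 with at least a 2-fold difference between the mean of *elf6* and *jmj13* and the mean of Col-0 and *ref6*. It was called changed alike when, in addition, each mutant on its own differed from the Col-0 and *ref6* mean by at least 2-fold in that direction and the 4 mutant libraries did not overlap the other 4 in scaled counts.

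Library totals were even, at 11373306 to 12048319 expected counts, with a median of 11552144. The composition was not. The TMM scaling factor was 1.079 to 1.218 in the *elf6* and *jmj13* libraries, against 1.012 and 1.070 in replicate 2 of Col-0 and *ref6* and 0.739 and 0.742 in replicate 1 of Col-0 and *ref6*. The 50 most abundant genes held 18.4% to 20.1% of the counts in the mutant libraries, against 20.3% to 21.4% in replicate 2 and 29.3% to 30.5% in replicate 1 of Col-0 and *ref6*. The SD of the log2 ratio of replicate 1 to replicate 2 was 0.36 in *elf6* and in *jmj13*, against 0.62 in Col-0 and in *ref6*. The named genes and gene lists were therefore also read without Col-0 replicate 1 and *ref6* replicate 1, as the fit of 6 libraries. Floral identity genes such as *AP1* were present in every library (76.6 to 94.8 TPM in the mutants, 42.5 to 95.8 TPM in Col-0 and *ref6*), and the root hair gene *RSL4* had 0 TPM in every library.

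**Figure D1:**
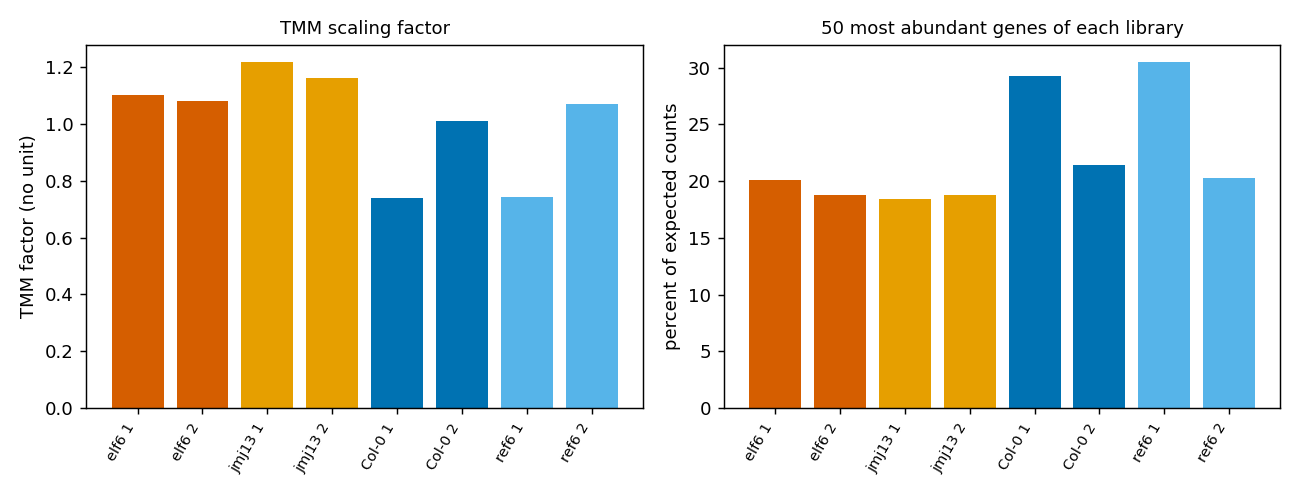
TMM scaling factor (left) and percent of expected counts held by the 50 most abundant genes (right), 1 bar per library, with *elf6* in dark orange, *jmj13* in light orange, Col-0 in dark blue and *ref6* in light blue. Col-0 1 and ref6 1 stand apart in both, with factors of 0.739 and 0.742 and shares of 29.3% and 30.5%.

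The targeted genes were read as a check of the labels. Levels are in TPM, transcripts scaled to the same total in each library and per transcript length. *ELF6* had 0.402 and 0.626 TPM in the libraries labelled *elf6* and 3.37 and 3.05 TPM in those labelled *jmj13*, against 1.37 and 2.00 TPM in Col-0 and 1.97 and 2.57 TPM in *ref6*. It was lower in *elf6* (log2 difference from the Col-0 and *ref6* mean -2.25, adjusted p = 0.00949), and the *elf6* libraries did not overlap any other. The *JMJ13* gene, AT5G46910, was read at 1.84 and 1.86 TPM in *jmj13* and 2.95 and 1.78 TPM in *elf6*, against 0.793 and 2.08 TPM in Col-0 and 0.779 and 1.95 TPM in *ref6*. For *REF6*, the *ref6* libraries gave 2.63 and 2.54 TPM and the Col-0 libraries 1.76 and 2.29 TPM. Neither gene was low in the libraries named for it, so these gene-level counts do not check the labels *jmj13* and *ref6*, and the groups are called by their labels throughout. Reads by exon were not analysed here. The study aligned its own reads to these genes and reports a truncated *REF6* transcript, catalytic domain included, at close to the wild-type level. It proposes that this *ref6* mutant probably keeps some demethylase activity.

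Pooling the mutants gave 7 called genes, 3 higher and 4 lower (0.015% and 0.0201% of those tested). The lowest adjusted p was 0.0142. At an unadjusted p under 0.05, 1267 genes were higher and 2115 lower (6.35% and 10.6% of those tested). Taken by themselves, the *elf6* libraries gave 174 genes higher and 21 lower than the Col-0 and *ref6* mean (0.873% and 0.105%), and the *jmj13* libraries gave 2 and 2 (0.01% in each direction). With 6 libraries these counts were 406 higher and 87 lower for *elf6* (1.99% and 0.426%), and 21 higher and 121 lower for *jmj13* (0.103% and 0.592%). Both mutant comparisons use the same Col-0 and *ref6* libraries. Only AT1G65370 and AT5G45430 were called in each mutant separately with 8 libraries, against 20 genes with 6 libraries (12 higher and 8 lower). Without fold or p, the 4 mutant libraries lay above all 4 others for 892 genes and below them for 950 (4.47% and 4.76%). The fold and separation conditions of a change alike, again without p, were met by 79 genes on the higher side and 171 on the lower (0.396% and 0.858%).

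The count of 6 rested on single libraries. It was 1 without Col-0 replicate 1, 250 without Col-0 replicate 2, 4 without *ref6* replicate 1 and 522 without *ref6* replicate 2. It was 0 without *elf6* replicate 1 (edgeR, with 1959 genes at an unadjusted p under 0.05), 2 without *elf6* replicate 2, and 1 without *jmj13* replicate 1 or replicate 2. DESeq2's Wald test on all 8 libraries called 91 genes higher and 460 lower (0.505% and 2.55% of the 18006 genes it gave an adjusted p), of which 182 were alike, the 6 among them.

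*AT5G45430*, a gene for a member of the protein kinase superfamily, was read in the mutants alone. It lies on chromosome 5 (18407150 to 18411977, plus strand, 13 exons; TAIR10.1 assembly, RefSeq annotation). It had 27.3 and 9.49 TPM in *elf6* and 9.54 and 39.3 TPM in *jmj13* (755, 260, 257 and 1046 counts), against 0 counts in each of the 4 Col-0 and *ref6* libraries. All 4 mutant libraries were thus above all others, although within each mutant the libraries differed severalfold. Over the mutant libraries the gene averaged 21.4 ± 14.6 TPM (SD, n = 4), at least 175.1-fold above the floor of 3 counts per library (adjusted p = 0.0223, and 0.016 with 6 libraries). Its closest paralog, *AT4G19110*, 79.8% identical over 1713 nucleotides of transcript, was read in every library, at 81.7, 80.6, 60.4 and 51.4 TPM in *elf6* and *jmj13*, against 22.1, 37.7, 37 and 46.9 TPM in Col-0 and *ref6* (log2 difference 0.53, adjusted p = 0.198). Whether the counting program divided reads between these paralogs differently among libraries was not tested. The neighbouring genes, *maMYB* and *AT5G45440*, were not called (adjusted p = 0.343 and 0.62).

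*AT1G65370*, which encodes a TRAF-like family protein, lies on chromosome 1 (24284469 to 24286347, minus strand, 5 exons). It had 52.6 and 53.2 TPM in *elf6* and 79.8 and 73.2 TPM in *jmj13*, against 19.0 and 37.2 TPM in Col-0 and 3.57 and 8.64 TPM in *ref6*. The mutant libraries were all higher, and within the other group *ref6* was lower than Col-0. The log2 difference was 1.94 ± 0.20 (SE, adjusted p = 0.0142), and 1.70 ± 0.15 with 6 libraries (adjusted p = 0.00143). Both mutants passed the test on their own, at 1.74 in *elf6* (adjusted p = 0.00949) and 2.13 in *jmj13* (adjusted p = 0.0382). With Col-0 only as the reference the difference was 0.79 and was not called (adjusted p = 0.27), and with *ref6* only it was 3.09.

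The closest paralog of this gene met every condition but the adjusted p. *AT1G65150*, also a TRAF-like family protein and 79.9% identical to *AT1G65370* over 881 nucleotides, lies on the same chromosome and strand (24203841 to 24205830). It had 17.4 and 14.3 TPM in *elf6* and 17.3 and 17.4 TPM in *jmj13*, against 2.53 and 12.4 TPM in Col-0 and 2.61 and 4.71 TPM in *ref6* (log2 difference 1.35, adjusted p = 0.151, and 1.00 with 6 libraries, adjusted p = 0.0545). Reads of such related genes may be shared between them in the counting, and their values are not independent.

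*AT1G67105* had the largest fitted decrease of the 6. It encodes a non-coding RNA without a known role, with 1 exon on chromosome 1 (25057479 to 25058264, plus strand). It had 0.502 and 2.53 TPM in *elf6* and 4.88 and 3.64 TPM in *jmj13*, against 24.9 and 15.9 TPM in Col-0 and 191 and 109 TPM in *ref6*. The mutant libraries were all lower than Col-0, and *ref6* was higher than Col-0, so that the pooled difference of -4.95 ± 0.49 (log2, SE, adjusted p = 0.0142) holds a contribution from either side. With 6 libraries it was -4.15 ± 0.29 (adjusted p = 0.000174, the lowest of that fit). On their own, *elf6* differed by -5.62 (adjusted p = 0.00933) and *jmj13* by -4.28 (adjusted p = 0.0949). With Col-0 only as the reference the gene was not called, and neither was any other (2748 genes at an unadjusted p under 0.05). Its neighbour *CYP735A2* showed a log2 difference of -0.08 (adjusted p = 0.923).

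*AT3G27250*, an uncharacterized protein-coding gene of 1 exon on chromosome 3 (10061009 to 10062870, plus strand), was lower in both mutants at low levels. It had 1.14 and 0.911 TPM in *elf6* and 2.85 and 2.2 TPM in *jmj13*, against 5.17 and 4.18 TPM in Col-0 and 8.62 and 7.79 TPM in *ref6*. The log2 difference was -2.40 ± 0.31 (SE, adjusted p = 0.0479), and -1.94 ± 0.29 with 6 libraries (adjusted p = 0.028). With 8 libraries *elf6* on its own differed by -2.97 (adjusted p = 0.0131) and *jmj13* by -1.83 (adjusted p = 0.21), so *jmj13* alone was not called. The gene's paralog *AT5G40800* (70.2% identity over 1008 nucleotides) stayed under 2 TPM in all libraries.

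The bases upstream of these 4 genes are shown as context, since the genes were called alike with 8 and with 6 libraries and their windows hold no annotated exon. Each is the 250 bases before the annotated start, 5′ to 3′ on the gene's own strand, read from the TAIR10.1 genome, and capitals mark TATAAA on either strand, a form of the TATA box.
AT5G45430 (chr5:18406900-18407149, plus strand): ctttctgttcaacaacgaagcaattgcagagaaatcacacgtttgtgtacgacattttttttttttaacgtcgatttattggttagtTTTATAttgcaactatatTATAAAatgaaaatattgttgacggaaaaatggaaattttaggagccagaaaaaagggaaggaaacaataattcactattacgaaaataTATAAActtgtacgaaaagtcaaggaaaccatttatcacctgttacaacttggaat
AT1G65370 (chr1:24286348-24286597, minus strand): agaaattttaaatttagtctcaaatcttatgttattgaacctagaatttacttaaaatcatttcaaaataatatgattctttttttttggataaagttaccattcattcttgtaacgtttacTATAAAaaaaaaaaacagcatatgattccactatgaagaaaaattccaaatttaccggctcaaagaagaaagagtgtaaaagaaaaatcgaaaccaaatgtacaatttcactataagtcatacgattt
AT1G67105 (chr1:25057229-25057478, plus strand): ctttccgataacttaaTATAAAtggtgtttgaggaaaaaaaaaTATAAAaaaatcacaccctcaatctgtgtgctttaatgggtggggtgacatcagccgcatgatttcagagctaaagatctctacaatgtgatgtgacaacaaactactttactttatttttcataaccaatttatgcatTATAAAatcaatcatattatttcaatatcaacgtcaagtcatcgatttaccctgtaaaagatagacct
AT3G27250 (chr3:10060759-10061008, plus strand): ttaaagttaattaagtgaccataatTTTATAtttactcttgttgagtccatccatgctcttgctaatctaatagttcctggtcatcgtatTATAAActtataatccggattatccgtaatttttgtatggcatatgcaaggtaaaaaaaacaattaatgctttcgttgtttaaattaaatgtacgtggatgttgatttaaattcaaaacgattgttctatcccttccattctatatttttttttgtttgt

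TATAAA occurred in all 4 windows and in 47.3% of the 27443 windows of the same length before protein-coding genes. The G-box CACGTG and CTCTGTTT, a form of the motif that the zinc fingers of REF6 are known to bind, were in none of the 4, and in 6.49% and 3.41% of all windows. The windows are short, and nothing about a factor follows from either.

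*AT5G49138* and *AT5G49130* overlap on opposite strands of chromosome 5. *AT5G49138* is a long non-coding RNA (19915806 to 19917787, minus strand), and *AT5G49130* encodes a transporter of the MATE efflux family (19915872 to 19917967, plus strand). *AT5G49138* had 3.69 and 4.63 TPM in *elf6* and 4.77 and 4.04 TPM in *jmj13*, against 11.2 and 11.3 TPM in Col-0 and 21.1 and 13.4 TPM in *ref6* (log2 difference -2.18 ± 0.29 SE, adjusted p = 0.0479). The mutant libraries were close to each other and all lower. With 8 libraries *elf6* on its own differed by -2.15 (adjusted p = 0.031) and *jmj13* by -2.21 (adjusted p = 0.171), so *jmj13* alone was not called. *AT5G49130* had 7.75 and 5.43 TPM in *elf6* and 6.46 and 7.59 TPM in *jmj13*, against 16.2 and 18.0 TPM in Col-0 and 26.9 and 13.8 TPM in *ref6* (log2 difference -1.94, adjusted p = 0.111). It met every condition but the adjusted p, and both genes were called alike with 6 libraries (-1.65, adjusted p = 0.0115, and -1.33, adjusted p = 0.0258). The use of strand in the counting is not stated, so reads of these genes cannot be told apart.

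*AT5G35930*, of the AMP-dependent synthetase and ligase family, lies on chromosome 5 (14066567 to 14075018, minus strand, 17 exons). It had 8.65 and 9.48 TPM in *elf6* and 3.18 and 4.00 TPM in *jmj13*, against 13.3 and 12.7 TPM in Col-0 and 15.3 and 11.5 TPM in *ref6*. All mutant libraries were lower, and those of *jmj13* were lower than those of *elf6*. The pooled log2 difference was -2.04 ± 0.27 (SE, adjusted p = 0.0479). The parts were unequal, at -1.04 in *elf6* (adjusted p = 0.201) and -3.05 in *jmj13* (adjusted p = 0.0419), and the difference between the mutants itself was called (2.01 log2, *elf6* minus *jmj13*, adjusted p = 0.0478). With 6 libraries the pooled difference was -1.53 (adjusted p = 0.00224), but *elf6* alone was at -0.51 and the gene no longer counted as changed alike.

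**Figure D2:**
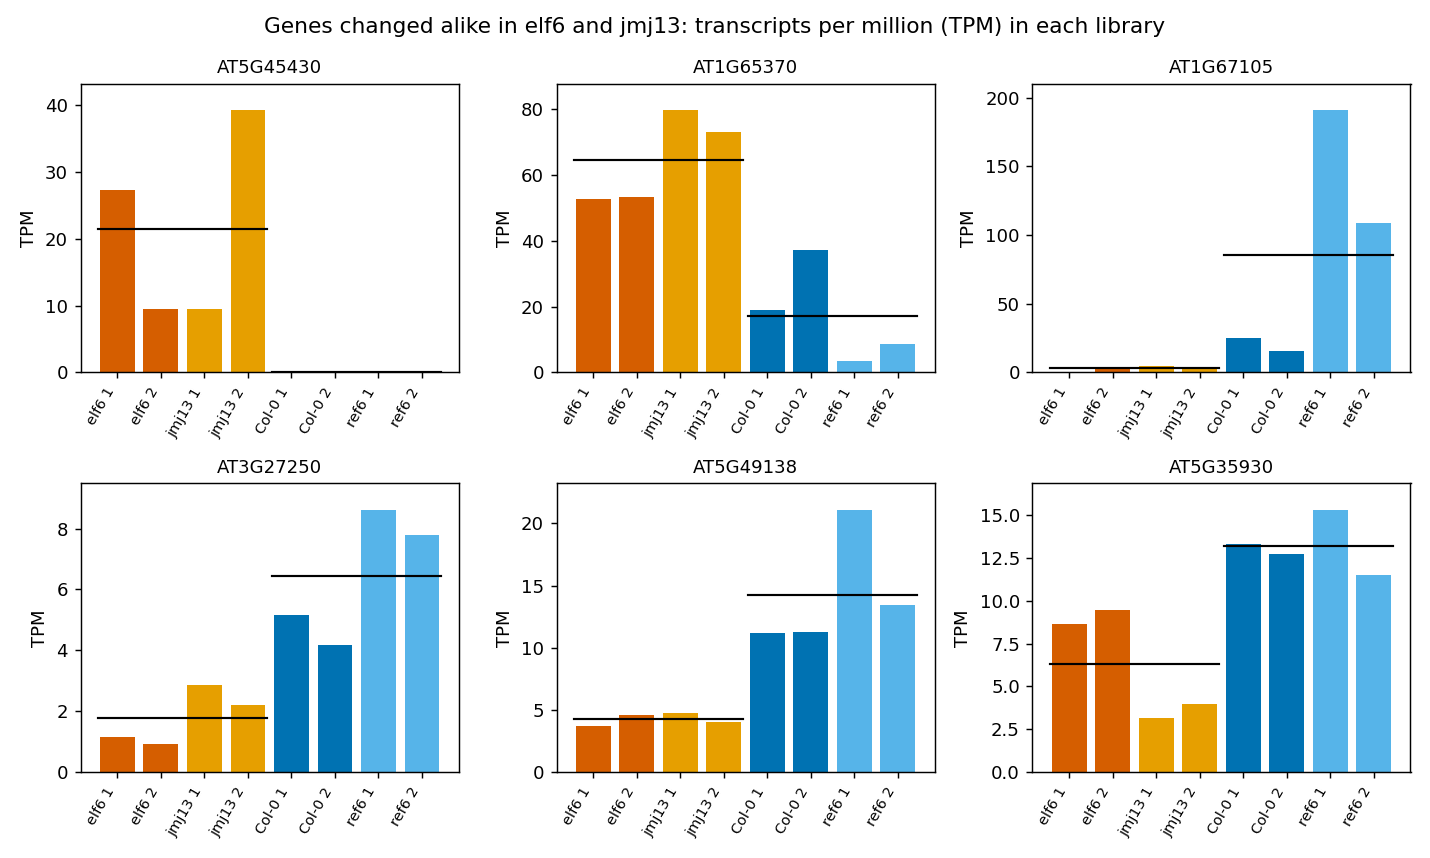
TPM (linear axis) of the 6 genes changed alike, 1 bar per library, with the mutants on the left of each panel and the mean of each group of 4 libraries as a black line. No mutant library overlaps a Col-0 or *ref6* library in any panel. *ref6* stands below Col-0 for AT1G65370 and above it for AT1G67105.

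A further called gene did not count as alike. *AT5G39850*, which encodes a ribosomal protein S4, had 34.6 and 37.2 TPM in *elf6* and 34.6 and 37.6 TPM in *jmj13*, against 18.3 and 30.7 TPM in Col-0 and 2.50 and 5.92 TPM in *ref6* (log2 difference 1.47 ± 0.19 SE, adjusted p = 0.0479, and 1.29 with 6 libraries, adjusted p = 0.0172). With Col-0 only as the reference it was 0.14. In scaled counts Col-0 overlapped the mutants, and *ref6* was far below both.

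Without Col-0 replicate 1 and *ref6* replicate 1, 20426 genes were tested, and 26 were called higher and 19 lower (0.127% and 0.093%). The fold and separation conditions were met by 155 genes on the higher side and 54 on the lower (0.759% and 0.264%), where 8 libraries had given more on the lower side. Of the 6 genes changed alike with 8 libraries, all 6 kept their direction and 5 were again called alike, the exception being *AT5G35930*. In all, 18 genes changed alike with 6 libraries, 8 higher and 10 lower. Of these, 12 met the fold and separation conditions with 8 libraries too, and 17 had an unadjusted p under 0.05 there. With 1 library each of Col-0 and *ref6*, the spread is carried by *elf6* and *jmj13* alone, and the lone libraries are assumed to vary like them. The 6 libraries are part of the 8, so agreement between the fits is largely built in and is no independent check. All genes that met the fold and separation conditions with 8 libraries and were tested again kept their direction (79 higher and 167 lower).

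The 13 genes that changed alike only with 6 libraries are named because they make up that count. Apart from *AT1G17744*, *SWEET14* and *AT5G49130*, which the naming rule also takes, they were named after their values were seen. *Cpn60beta3*, a subunit of the chloroplast chaperonin, had 19.5 and 12.6 TPM in *elf6* and 19.1 and 18.0 TPM in *jmj13*, against 10.2 TPM in Col-0 replicate 2 and 4.17 TPM in *ref6* replicate 2 (log2 difference 1.28 ± 0.20 SE, adjusted p = 0.0305). The libraries left out had 10.7 and 2.42 TPM, and with Col-0 only as the reference *Cpn60beta3* was at 0.24. *AT5G41750*, a disease resistance gene of the TIR-NBS-LRR class on chromosome 5, was low throughout, with 1.89 and 2.08 TPM in *elf6* and 0.73 and 0.985 TPM in *jmj13*, against 0.125 TPM in Col-0 replicate 2 and 0.31 TPM in *ref6* replicate 2 (2.62 ± 0.37, adjusted p = 0.026). The libraries left out were close to these, at 0.136 and 0.336 TPM, and with all 8 its difference was 2.26 (adjusted p = 0.0956). It is 89.1% identical over 3255 nucleotides to *AT5G41740*, so its reads may be shared.

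*SVL3*, of a family of glycerophosphodiester phosphodiesterase-like proteins of the cell wall, had 8.05 and 8.13 TPM in *elf6* and 10.1 and 6.19 TPM in *jmj13*, against 4.28 TPM in Col-0 replicate 2 and 1.45 TPM in *ref6* replicate 2 (1.57 ± 0.23, adjusted p = 0.028). *GSTF6*, a glutathione S-transferase of stress responses, had 19.7 and 20.3 TPM in *elf6* and 13.2 and 20.4 TPM in *jmj13*, against 10.2 and 3.45 TPM in the 2 kept libraries (1.50 ± 0.24, adjusted p = 0.032). Col-0 replicate 1, at 18.0 TPM, lay among the mutants. *AT2G27402*, annotated as a plastid transcriptionally active protein, had 13.3, 12, 11.5 and 10.1 TPM in *elf6* and *jmj13*, against 4.58 and 0.689 TPM in the kept libraries of Col-0 and *ref6* (2.58 ± 0.29, adjusted p = 0.00953). Col-0 replicate 1, left out, had 9.19 TPM, near the mutants, the groups overlapped in scaled counts with 8 libraries, and with Col-0 only as the reference the difference was 0.20 (adjusted p = 0.854).

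The small nuclear RNA *U2.4*, a component of the spliceosome, depended wholly on the choice of libraries. It had 20.6 and 16.3 TPM in *elf6* and 22 and 18.4 TPM in *jmj13*, against 6.92 and 6.76 TPM in replicate 2 and 35.8 and 21.1 TPM in replicate 1 of Col-0 and *ref6*. Its log2 difference was 1.37 with 6 libraries (adjusted p = 0.028) and -0.44 with 8 (adjusted p = 0.719). It overlaps other genes and is 94.8% identical to a further U2 gene over 286 nucleotides.

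On the lower side, *GPAT5*, an acyltransferase of suberin synthesis, had 3.33 and 5.52 TPM in *elf6* and 4.02 and 7.12 TPM in *jmj13*, against 9.85 and 22.6 TPM in Col-0 and 10.2 and 7.90 TPM in *ref6*. Mutant libraries were all lower, with *jmj13* replicate 2 close to *ref6* replicate 2. The difference was -1.55 ± 0.25 with 6 libraries (adjusted p = 0.032) and -1.69 with 8 (adjusted p = 0.118). *SWEET14*, a sugar transporter that acts in anthers, had 4.38 and 4.95 TPM in *elf6* and 5.27 and 5.41 TPM in *jmj13*, against 8.20 and 14.1 TPM in Col-0 and 6.13 and 7.42 TPM in *ref6* (-1.16 ± 0.20 with 6 libraries, adjusted p = 0.04, and -1.19 with 8, adjusted p = 0.111). *LSH10*, a DUF640 protein gene of the LIGHT-DEPENDENT SHORT HYPOCOTYLS family, had 8.29 and 7.99 TPM in *elf6* and 8.80 and 8.01 TPM in *jmj13*, against 9.37 and 10.3 TPM in Col-0 and 36.8 and 25.6 TPM in *ref6* (-1.10 ± 0.18, adjusted p = 0.0331). For *LSH10* the mutants were near Col-0, and *ref6* was the high genotype.

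*AT2G01540*, a calcium-dependent lipid-binding protein gene, had 5.39, 6.97, 7.17 and 6.63 TPM in *elf6* and *jmj13*, against 10.1 and 22.3 TPM in the kept libraries, while Col-0 replicate 1 had 3.71 TPM (-1.32 ± 0.20, adjusted p = 0.028). *AT3G01345*, uncharacterized, had 0.48, 0.603, 0.73 and 2.17 TPM in *elf6* and *jmj13*, against 16.7 TPM in Col-0 replicate 2 and 2.64 TPM in *ref6* replicate 2. Its difference of -3.01 ± 0.36 (adjusted p = 0.0124) rested mostly on that Col-0 library, since Col-0 replicate 1 had 1.24 TPM. *AT1G17744*, uncharacterized and antisense to *AT1G17745*, had 3.34, 6.06, 7.72 and 8.01 TPM in *elf6* and *jmj13*, against 13.8 and 19.4 TPM in the kept libraries (-1.55 ± 0.23, adjusted p = 0.028). Col-0 replicate 1, left out, had 6.55 TPM, within the range of the mutants in TPM. In scaled counts, however, all 4 mutant libraries of *AT1G17744* lay below all 4 others. With 8 libraries its difference was -1.46 (edgeR adjusted p = 0.111).

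**Figure D3:**
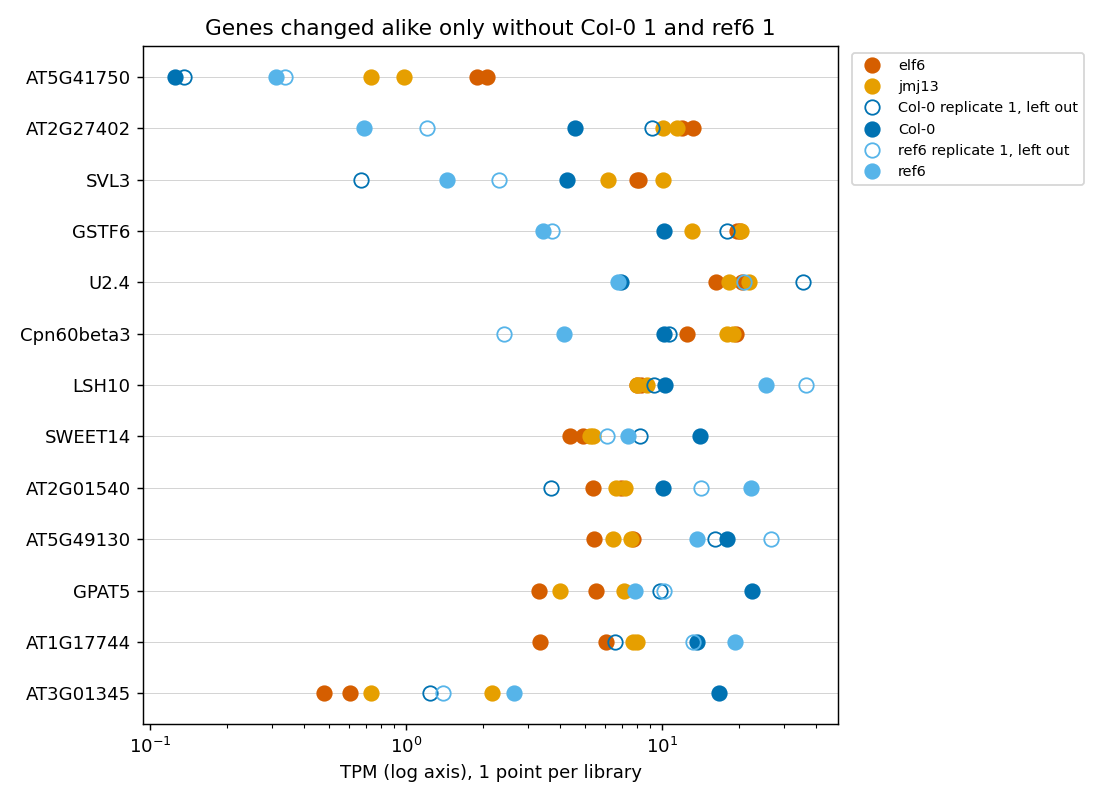
TPM on a log axis for the 13 genes that changed alike only with 6 libraries, 1 point per library, filled for libraries in that fit and open for the left-out replicate 1 of Col-0 and of *ref6*. The open Col-0 point lies among the mutant points for GSTF6 (18.0 TPM) and above them for U2.4 (35.8 TPM), and both open points lie below them for AT5G41750 (0.136 and 0.336 TPM).

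With 8 libraries, the genes with the lowest p that met all conditions except the adjusted p are given as not called. Among those with higher values in the mutants, *INO*, a YABBY transcription factor that specifies the outer integument of the ovule, had 4.32 and 4.45 TPM in *elf6* and 6.51 and 5.76 TPM in *jmj13*, against 1.27 and 3.25 TPM in Col-0 and 0.574 and 0.689 TPM in *ref6* (log2 difference 1.74 ± 0.30 SE, adjusted p = 0.116). With 6 libraries it was 1.66 (adjusted p = 0.0612), and each mutant alone passed the test there (adjusted p = 0.0368 in both). DESeq2 called *INO* with 8 libraries (1.72, adjusted p = 0.00258). *GRF8*, a growth-regulating transcription factor, had 8.91 and 7.88 TPM in *elf6* and 9.00 and 10.1 TPM in *jmj13*, against 1.89 and 4.59 TPM in Col-0 and 1.94 and 4.60 TPM in *ref6* (1.12 ± 0.24, adjusted p = 0.149). Its Col-0 and *ref6* values were alike within each replicate number, and *GRF8* was 0.84 with 6 libraries (adjusted p = 0.105).

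*NAC084*, of the NAC transcription factors, had 6.54, 6.24, 7.56 and 7.17 TPM in *elf6* and *jmj13*, against 1.67, 4.25, 1.55 and 2.90 TPM in Col-0 and *ref6* (1.07, adjusted p = 0.152, and 0.84 with 6 libraries, adjusted p = 0.159). *AT5G42700*, of the AP2/B3-like transcription factors, had 5.69, 4.66, 8.07 and 6.79 TPM in *elf6* and *jmj13*, against 2.52, 3.22, 0.455 and 1.91 TPM in Col-0 and *ref6* (1.38, adjusted p = 0.152, and 1.19 with 6 libraries, adjusted p = 0.127). The others were *AT4G32208* of the heat shock protein 70 family (1.13), *AT1G29965* of the ribosomal protein L18ae family (1.11) and *AT4G12870*, a GILT reductase gene (1.04), with adjusted p of 0.149 to 0.152. *AT4G32208* is 99% identical over 602 nucleotides to another HSP70 gene, so its counts are uncertain. In each of these 7 genes and *AT1G65150* the 4 mutant libraries lay above the other 4, as the rule for naming them requires.

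Among those with lower values in the mutants, *MYB24*, a jasmonate-responsive factor of stamen maturation, had 20.9 and 24.1 TPM in *elf6* and 13.1 and 11.8 TPM in *jmj13*, against 36.1 and 37.9 TPM in Col-0 and 44.6 and 29.4 TPM in *ref6* (log2 difference -1.61 ± 0.26 SE, adjusted p = 0.111). With 6 libraries it was called, at -1.12 (adjusted p = 0.0184), but not alike, since *elf6* was at -0.60. *ESP*, which directs glucosinolate breakdown toward nitriles, had 46.2 and 52.0 TPM in *elf6* and 42.8 and 46.0 TPM in *jmj13*, against 63.0 and 61.9 TPM in Col-0 and 104 and 126 TPM in *ref6* (-1.29 ± 0.20, adjusted p = 0.103, and -1.04 with 6 libraries, adjusted p = 0.0172). *AT1G01250*, of the AP2/ERF-type DNA-binding proteins, had 20.7 and 23.7 TPM in *elf6* and 29.1 and 31.7 TPM in *jmj13*, against 55.3 and 41.8 TPM in Col-0 and 59.8 and 64.8 TPM in *ref6* (-1.54 ± 0.24, adjusted p = 0.103, and -1.12 with 6 libraries, adjusted p = 0.0172). *ESP* and *AT1G01250* kept their separation and failed only the 2-fold condition in 1 mutant with 6 libraries. *AT1G17744*, *SWEET14* and *AT5G49130*, given above, also met all conditions except the adjusted p with 8 libraries.

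**Figure D4:**
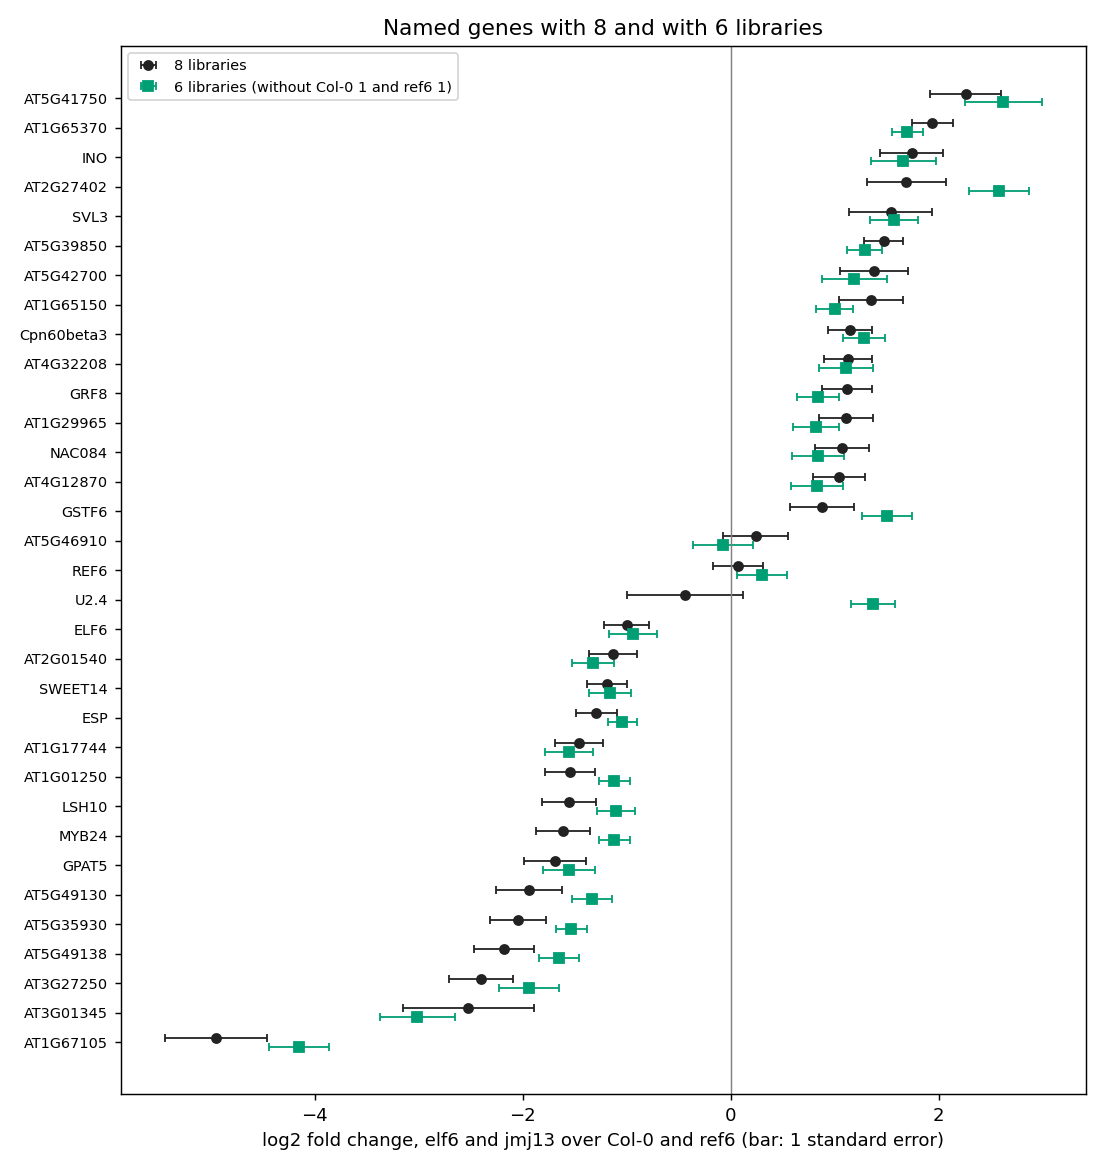
Log2 fold change of *elf6* and *jmj13* over Col-0 and *ref6*, with 1 standard error, for the named genes except AT5G45430, whose fitted value is no bound. Black circles are fits of 8 libraries and green squares fits of 6. AT1G65370 (1.94 and 1.70) and AT1G67105 (-4.95 and -4.15) are close in both, and U2.4 (-0.44 and 1.37) changes sign.

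Leaving p aside, 79 genes on the higher side and 171 on the lower met the fold and separation conditions with 8 libraries (0.396% and 0.858%). Of these, 43 and 29 met them in the fit of 6 libraries too, which shares those libraries. Their log2 differences with 8 libraries ran from 1.13 to 12.03 and from -4.95 to -1.09. The higher side consisted mostly of weakly read genes, with 7 of 43 at a mean of at least 5 TPM in the mutants, against 18 of 29 at that mean in Col-0 and *ref6* on the lower side. An example chosen after its values were seen is *ABCG6*, a transporter of suberin synthesis, with 0.647, 1.23, 1.21 and 1.46 TPM in *elf6* and *jmj13*, against 3.44, 5.48, 1.73 and 1.56 TPM in Col-0 and *ref6* (log2 difference -1.69, adjusted p = 0.116).

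Gene lists that fit buds were described by their counts beside those of all genes, for which the median log2 difference was 0.05 with 8 libraries and 0.03 with 6. At an unadjusted p under 0.05, the shares of all genes to set beside the lists are 6.35% higher and 10.6% lower with 8 libraries, and 6.65% and 7.64% with 6. DESeq2 called 0.505% of its genes higher and 2.55% lower. None of the 7 called genes belonged to a list. In bulk tissue, fewer cells of a type and less RNA per cell cannot be told apart. Photosynthesis genes, chlorophyll-binding proteins and photosystem subunits among them, had a median of -0.61 over 55 tested genes. At an unadjusted p under 0.05, 32 of the 55 were lower and 0 higher, against 10.6% and 6.35% of all genes, and DESeq2 called 14 lower (2.55% of all genes). *LHCB2.1*, an antenna protein of photosystem II, had 2420 and 2040 TPM in *elf6* and 2010 and 2000 TPM in *jmj13*, against 4960 and 2870 TPM in Col-0 and 5060 and 2740 TPM in *ref6* (log2 difference -1.42 ± 0.38 SE, adjusted p = 0.164). The 2 left-out libraries were the high ones, and without them the difference was -0.53 and the list's median -0.28. The list's quartiles were then -0.36 and -0.18, against -0.19 and 0.25 for all genes, so most of its genes stayed below 0.

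Aquaporins of the TIP and PIP families, the water channels of tonoplast and plasma membrane, had a median of -0.95 over 15 genes, 13 lower and 0 higher at an unadjusted p under 0.05 (10.6% and 6.35% of all genes), and 6 called lower by DESeq2 (2.55% of all genes). *TIP2;2*, a channel of the tonoplast, had 19.6 and 22.1 TPM in *elf6* and 24.8 and 19.2 TPM in *jmj13*, against 66.9 and 32.2 TPM in Col-0 and 45.8 and 33.9 TPM in *ref6* (-1.57, adjusted p = 0.149, and -0.75 with 6 libraries, adjusted p = 0.0734). With 6 libraries the list's median was -0.37, with quartiles of -0.67 and -0.26. Arabinogalactan proteins, glycoproteins of the cell surface, had -0.88 over 27 genes (20 lower, 0 higher, 9 called lower by DESeq2), and -0.17 with 6 libraries (7 lower, 1 higher, against 7.64% and 6.65% of all genes). Expansins, which loosen the cell wall, had -0.60 over 18 genes (10 lower, 0 higher, 5 called lower by DESeq2) and -0.37 with 6 libraries (quartiles -0.68 and -0.10). The list's median was -0.89 in *elf6* and -0.44 in *jmj13*, a difference that was not tested. Some members went opposite ways, such as *EXPA1* (-1.40 in *elf6*, 0.20 in *jmj13*) and *EXLA1* (2.89 and -1.77). With 8 libraries 2 members, *EXPA11* and *EXPA5*, met the fold and separation conditions on the lower side (0.858% of all genes). *EXPA5* had 56.8 and 70 TPM in *elf6* and 67.8 and 71.5 TPM in *jmj13*, against 104 and 96.1 TPM in Col-0 and 113 and 126 TPM in *ref6* (-1.17, adjusted p = 0.122, and -0.85 with 6 libraries, adjusted p = 0.0392).

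The SAUR genes, induced by auxin, had a median of -0.62 with 8 libraries and 0.03 with 6. In each of these 5 lists the median was nearer to 0 without Col-0 replicate 1 and *ref6* replicate 1. Jasmonate genes had a median of -0.19 over 35 genes (3 higher, 11 lower, 3 called lower by DESeq2, against 6.35%, 10.6% and 2.55% of all genes), and -0.12 with 6 libraries (3 higher, 8 lower, *MYB24* called). The list's median was 0.03 in *elf6* and -0.57 in *jmj13*, a difference that was not tested, and *JAZ7* was 1.22 in *elf6* and -2.10 in *jmj13*. Genes lower in both included *MYB24* and its relative *MYB21*. The latter had 33, 33.3, 26.8 and 27.6 TPM in *elf6* and *jmj13*, against 52.2, 38.7, 48.7 and 34.3 TPM in Col-0 and *ref6* (-1.03, adjusted p = 0.167, and -0.40 with 6 libraries).

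Cell cycle genes had a median above 0 that was about the same without those libraries. It was 0.24 over 37 genes with 8 libraries (5 higher, 0 lower) and 0.25 with 6 (9 higher, 0 lower), with 0 calls by DESeq2. Of all genes, 6.35% were higher at that p with 8 libraries and 6.65% with 6. *CDC20.2*, an activator of the anaphase-promoting complex, had a log2 difference of 0.64 (adjusted p = 0.2) and *CYCB2;3*, a mitotic cyclin, of 0.56 (adjusted p = 0.223). The list's lower quartile was 0.00 with 8 libraries, and some members were below 0, such as *CDKB1;1* (-0.09) and *CYCD4;1* (-0.22). Meiosis genes had 0.24 over 14 genes and 0.34 with 6 libraries. Floral organ identity genes had -0.02 over 12 genes, late pollen genes -0.26 over 31, and tapetum and sporopollenin genes -0.23 over 15, and with 6 libraries 0.03, -0.18 and -0.28. The remaining lists had medians of -0.42 (pollen coat) to 0.25 (WRKY factors). With library size as the only scaling, the median of all genes was 0.39, that of cell cycle genes 0.58 and that of photosynthesis genes -0.20, and the medians of the jasmonate, late pollen, tapetum and floral organ lists were above 0, at 0.17, 0.07, 0.09 and 0.31.

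Touch and wound genes, induced by handling and injury, had a median of 0.54 over 32 genes with 8 libraries and 0.52 with 6. With 8 libraries 11 were higher and 2 lower at an unadjusted p under 0.05 (6.35% and 10.6% of all genes). DESeq2 called 3 higher and 2 lower (0.505% and 2.55% of all its genes). The mutant libraries were apart from the others for 0 of them, against 4.47% of all genes above and 4.76% below. Of all genes, 0.127% were called higher with 6 libraries. With 6 libraries *TCH3* (1.56, adjusted p = 0.028), *TCH4* (1.62, adjusted p = 0.04) and *WRKY18* (adjusted p = 0.032) were called higher. The list's median was 1.23 in *elf6* and -0.33 in *jmj13*, a difference that was not tested. *TCH4*, an enzyme that remodels xyloglucan and is induced by touch, had a pooled difference of 1.94 made of 3.99 in *elf6* and -0.11 in *jmj13*. The summed level of the list was 4630 and 5080 TPM in *elf6* and 1090 and 1500 TPM in *jmj13*, against 1400 and 1270 TPM in Col-0 and 703 and 1810 TPM in *ref6*.

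**Figure D5:**
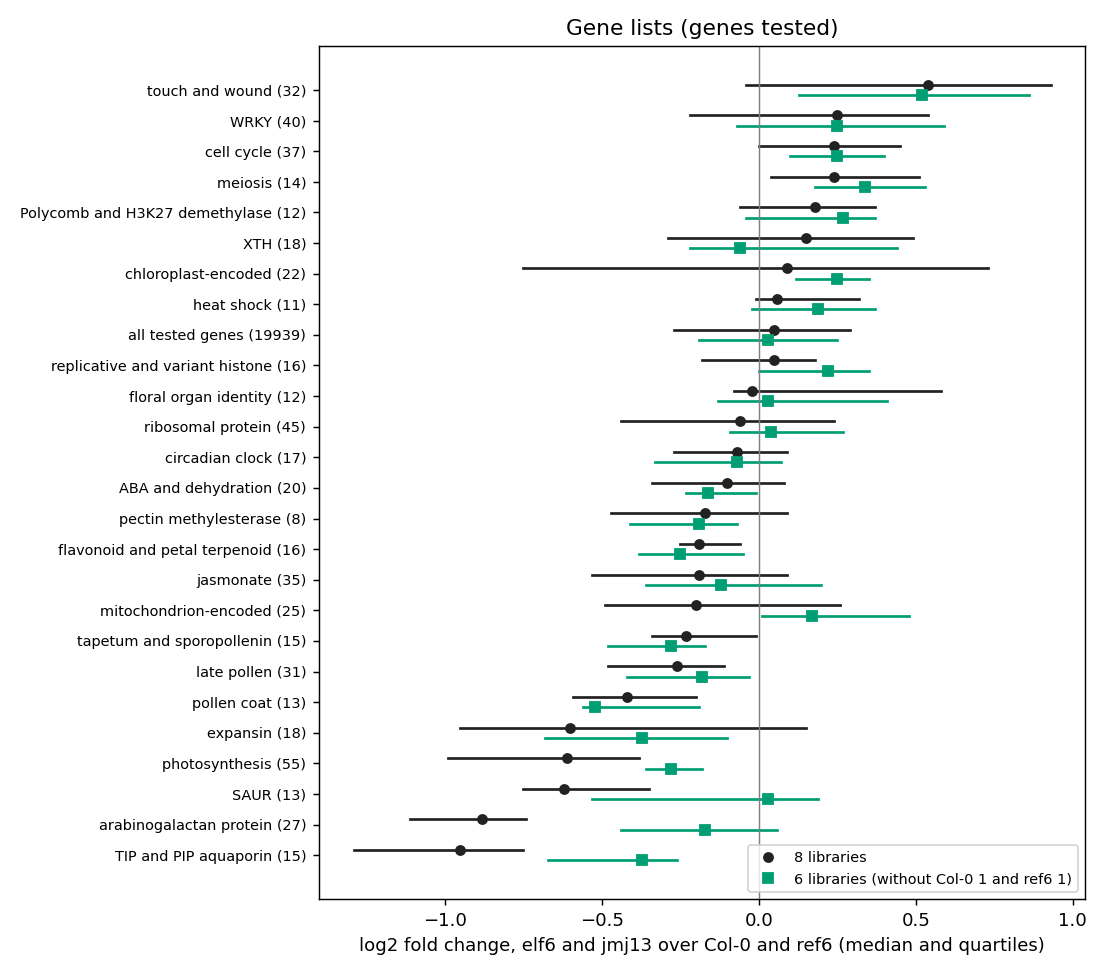
Median (marker) and quartiles (line) of the log2 fold change of *elf6* and *jmj13* over Col-0 and *ref6* for each gene list, with the number of tested genes in parentheses, from 8 libraries (black circles) and 6 (green squares). Aquaporins are at -0.95 with 8 libraries and -0.37 with 6, and cell cycle genes at 0.24 and 0.25.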

How the data were processed

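Per the submitters' processing notes, Bowtie2, RSEM and TAIR10 were used (versions not given in the sources used here). The authors deposited, for each of 8 bud libraries, expected counts per gene estimated by RSEM, not normalized, and FPKM values per gene. Expected counts were rounded to whole numbers. Library totals were 11373306 to 12048319, and depth limits low genes first: 3 counts per library served as the floor. Counts cover counting error only. Use of strand is not stated. The deposited tables hold no other columns of per-sample values.

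Genes were filtered with filterByExpr, scaled by TMM and fitted in edgeR 4.0.16 (R 4.3.3) with 1 factor for 4 genotypes (residual degrees of freedom: 4 with 8 libraries, 2 with 6). The contrast was the mean of *elf6* and *jmj13* minus the mean of Col-0 and *ref6*, tested by quasi-likelihood with Benjamini-Hochberg adjustment over all tested genes. A call needed an adjusted p under 0.05 and a log2 difference of at least 1. The same fit gave each mutant against the Col-0 and *ref6* mean and *elf6* minus *jmj13*. TPM was computed from the deposited FPKM and is used for levels, without TMM. The code was tested on simulated data.

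Alternatives were RLE, upper quartile and library-size scaling, other filters, a 2-group factor, a replicate block, 1 reference genotype, a term for or omission of Col-0 replicate 1 and *ref6* replicate 1, each library left out, DESeq2 1.42.0, and limma 3.58.1 on log2(FPKM + 1) and log2(FPKM + 0.1). The authors' NOISeq test was not run.

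The rule named the targeted genes and, among genes changed alike with at least 5 TPM on the higher side, the 10 of largest change in each direction, all where fewer, then filled with genes of lowest p that met the other conditions, plus up to 5 in each direction also alike with 6 libraries and up to 4 of each list. *AT5G39850*, most genes alike only with 6 libraries and list examples fall outside it and were named after their values were seen. The exceptions, *AT1G17744*, *SWEET14* and *AT5G49130*, were filled in by lowest p. Members and lists were chosen with earlier results of these data known. Positions, exons and upstream sequence came from the TAIR10.1 RefSeq annotation, and paralogs from BLAST+ 2.17.0.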

Additional observations from a re-analysis of the deposited data

Results flagged for a closer look

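In a group of 4 libraries, a value was singled out when its gap to the nearest other passed Dixon's 95% critical value for the group's range, which chance gives in about 1 group in 20. Over 76 such groups, 7 values were singled out. *AT3G01345* had 2.17 TPM in *jmj13* replicate 2, far above the other mutant libraries, and 16.7 TPM in Col-0 replicate 2, far above the other Col-0 and *ref6* libraries. *AT5G46910* had 2.95 TPM in *elf6* replicate 1, the highest of the mutant libraries. *AT1G65150* was lowest of the mutant libraries in *elf6* replicate 2, at 14.3 TPM, and *GSTF6* in *jmj13* replicate 1, at 13.2 TPM. *GPAT5* had 22.6 TPM in Col-0 replicate 2, the highest of the Col-0 and *ref6* libraries. The number of genes listed with reads, 23220, was highest of the mutant libraries in *jmj13* replicate 2.

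Of the 34 named genes, 2 differed between *elf6* and *jmj13* in the fit's own contrast. *ELF6* was lower in *elf6* than in *jmj13* (log2 difference -2.49, edgeR adjusted p = 0.0119), and *AT5G35930* was higher in *elf6* (2.01, adjusted p = 0.0478).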

How the results depend on the processing

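Counts of called genes moved with most settings, and the cause was not tested. The pooled count of 7 was 3 with RLE size factors, 4 with library size only, 566 without a low-count filter, 2 when 50 reads on average were required, 1 with a 2-group factor, 45 without Col-0 replicate 1 and *ref6* replicate 1, 16 with a term for them, 0 with Col-0 only (edgeR, 2748 genes at an unadjusted p under 0.05), 11 with *ref6* only, 551 with DESeq2, and 4, 2 and 4 with limma at a pseudocount of 1, of 0.1, and of 1 with a minimum mean FPKM of 1. In the same order, the 6 genes changed alike became 3, 4, 169, 2, 1, 18, 7, 0, 11, 182, 3, 2 and 3. Of the 6, DESeq2, upper quartile scaling and the unfiltered fit kept all 6. RLE size factors kept 3, library size only 3, 50 reads 2, the 2-group factor 1, Col-0 only 0 and *ref6* only 4. The limma settings kept 3, 2 and 3. Those kept with RLE and with library size only were *AT5G45430*, *AT1G65370* and *AT1G67105*. Leaving out 1 library gave 0 to 1090 pooled calls and 0 to 522 alike. The *elf6* count of 195 was 741 without the filter, 124 with 50 reads, 493 without the pair of libraries, 321 with the term, 24 and 53 with Col-0 or *ref6* only, 673 with DESeq2, 63 with limma at 0.1, and 6 to 930 with 1 library left out. The *jmj13* count of 4 was 2 with library size only, 248 without the filter, 1 with 50 reads, 142 without the pair, 53 with the term, 0 with Col-0 only (2232 genes at an unadjusted p under 0.05), 332 with DESeq2, 7, 1 and 0 with limma, and 0 to 114 with 1 library left out.

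Replicate numbers are shared by label only. Deviations of same-numbered libraries correlated across genes at 0.461 between Col-0 and *ref6*, 0.343 between *elf6* and *jmj13*, and 0.031 to 0.117 otherwise. With the replicate block, 91 pooled genes were called, 29 alike, 466 in *elf6* and 10 in *jmj13*.

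Signs changed for 4 genes that were not called with 8 libraries. *U2.4* was 0.08 with library size only, 1.37 without the pair and with the term, 0.39, 0.44 and 0.39 with limma, 0.61 without Col-0 replicate 1 and 0.31 without *ref6* replicate 1, with -0.87 without Col-0 replicate 2. *REF6* was -0.09 with *ref6* only, -0.10 without *elf6* replicate 1 or *jmj13* replicate 1 and -0.08 without *ref6* replicate 2, with 0.30 without the pair. *AT5G46910* was -0.07 without the pair and with the term and 0.47 without Col-0 replicate 2, and *GSTF6* -0.18 with Col-0 only. Among 150 list medians tried, 28 moved. The median of all genes was 0.05, 0.39 with library size only and 0.32 to 0.42 with limma.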
